A study of Homo sapiens with 6 samples.

Results

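The genes described here are 10 receptor tyrosine kinases of the MET, AXL, FGF and PDGF receptor families. The list was chosen with earlier results of these data known, and its genes were taken by gene symbol from the 58884 Ensembl genes measured. They were divided by the tissue in which each is best known into 4 epithelial receptors (MET, FGFR2, FGFR3 and FGFR4), 5 mesenchymal receptors (AXL, FGFR1, PDGFRA, PDGFRB and DDR2) and KIT, which belongs to neither class. RNA came from DLD1 parental cells, an established colorectal cancer line with a helical domain mutation in PIK3CA, and from DLD1 cells carrying the K477A and R478A changes in p85β (p85β KR-AA mutant cells, referred to as mutant cells), with 3 libraries per genotype. Both copies of PIK3R2 were altered, at a nuclear localization sequence, and the comparison asks whether gene expression differs when p85β is kept from the nucleus. No agent or time point is given for either genotype, and both share the DLD1 background. Several mutant clones were derived independently in the study, but no library is labelled with a clone, so that p-values measure the spread between these libraries, which may be technical.

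Library totals lay between 20301396 and 26712816 estimated counts, and 3 counts, the lowest level treated as detectable, corresponded to 0.0818 to 0.218 CPM (counts scaled to the library size after TMM, which centers the libraries on the bulk of their genes). These limits cover counting error only. Of 16 colon epithelial markers, 14 exceeded 1 CPM in every parental library and 13 in every mutant library, while their summed level was 58184.5 to 80283.9 CPM in parental and 9111 to 10645 CPM in mutant libraries. KRT8, KRT18 and KRT19 were the most abundant of them in both genotypes and made up most of these sums. Of the 15 tested, 8 markers were called down and 3 (CDH1, CDH17 and CEACAM5, named after their values were seen) up, or 1 down and 1 up with offsets for length and GC content. Over all genes tested, 17.6% were called down and 28.6% up by the rule given below, or 6.25% and 17.6% with both offsets. The colon factor CDX1 had at most 3 counts in any library. Of 17 mesenchymal markers, 4 and 11 exceeded 1 CPM in every library of the respective genotype, and their sum was 26.9 to 29.0 CPM in parental and 6351 to 7255 CPM in mutant libraries, led by TAGLN, ACTA2 and FN1 in parental and by FN1, VIM and ZEB2 in mutant libraries. Of the 12 tested, 9 were called up and 1 down. Among the 12, 7 had at most 3 counts in every parental library. These 7 could be tested only because of the mutant libraries and could be called only up. TAGLN was the one called down, from 15.3 to 1.73 CPM (log2 fold change -3.14), and ACTA2 was not called. With both offsets 9 were called up and 0 down. THY1 and COL1A2 had at most 1 count in every library of either genotype. Neuron markers over 1 CPM in every library numbered 1 and 5 of 10 (sums of 520.9 to 608.1 and 347.6 to 368.2 CPM, mostly TUBB3, which was not called, whereas SYT1, MAP2, NEFM and NEFL were called up, the last from 0 counts to 131.5 CPM), endothelial markers 1 and 0 of 5 (1.09 to 3.10 and 1.70 to 2.04 CPM, led by VWF and KDR), and blood markers 1 and 1 of 8 (4.87 to 6.85 and 4.14 to 5.29 CPM, nearly all CD14). The part of these marker differences in the receptor differences was not tested, and in RNA from whole cultures fewer cells of a type and less RNA per cell cannot be told apart.

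Receptor tyrosine kinases are single-pass membrane proteins whose cytoplasmic kinase domains phosphorylate each other when a ligand brings receptors together. The phosphotyrosines then recruit proteins with SH2 domains, among them the p85 subunits of PI3K, the adaptor GRB2 and the phosphatase SHP2. In intestinal epithelium MET receives hepatocyte growth factor from the stroma and FGFR3 and FGFR4 receive FGF ligands, whereas AXL, FGFR1, DDR2 and the PDGF receptors are best known from fibroblasts and other mesenchymal cells, and KIT from melanocytes, blood progenitors, mast cells and interstitial cells of Cajal.

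A promoter window was found for 9 of the receptors in RefSeq (GRCh38.p14), all but FGFR1, and where a gene had several windows the one with the most upstream start was taken. The 250 bases upstream of the start are shown for the receptors called different between the genotypes below, as these are the genes the main comparison turns on, although gene counts tie no transcript to a window, and AXL and FGFR4 have 2 windows each: MET (chr7:116671946-116672195, plus strand), AXL (chr19:41218973-41219222, plus strand), KIT (chr4:54657707-54657956, plus strand) and FGFR4 (chr5:177086665-177086914, plus strand). Capitals mark matches on either strand to a GC box (GGGCGG) and to CACCTG (read as CAGGTG on the other strand), the E-box that SNAIL and ZEB repressors are known to bind.
MET: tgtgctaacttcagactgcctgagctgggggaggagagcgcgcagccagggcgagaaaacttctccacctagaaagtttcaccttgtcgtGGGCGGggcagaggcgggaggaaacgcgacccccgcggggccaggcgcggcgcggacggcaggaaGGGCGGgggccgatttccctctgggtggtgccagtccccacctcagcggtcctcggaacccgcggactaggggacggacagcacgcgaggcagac
AXL: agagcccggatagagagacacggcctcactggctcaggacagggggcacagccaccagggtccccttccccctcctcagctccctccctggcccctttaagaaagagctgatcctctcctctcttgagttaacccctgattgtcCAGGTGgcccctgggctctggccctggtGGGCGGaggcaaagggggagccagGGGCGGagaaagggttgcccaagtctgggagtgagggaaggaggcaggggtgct
KIT: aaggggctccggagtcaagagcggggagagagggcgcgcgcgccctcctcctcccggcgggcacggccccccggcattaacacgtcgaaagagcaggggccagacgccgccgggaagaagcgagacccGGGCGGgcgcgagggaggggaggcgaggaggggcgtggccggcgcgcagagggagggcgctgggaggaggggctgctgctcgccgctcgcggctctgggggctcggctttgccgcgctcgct
FGFR4: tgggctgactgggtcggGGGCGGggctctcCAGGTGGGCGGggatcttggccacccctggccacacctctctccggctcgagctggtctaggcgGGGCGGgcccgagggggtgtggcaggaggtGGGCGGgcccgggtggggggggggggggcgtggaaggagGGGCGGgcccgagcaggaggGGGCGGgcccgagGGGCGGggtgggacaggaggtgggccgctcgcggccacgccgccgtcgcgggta

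The AXL window held 2 GC boxes and 1 E-box, the MET window 2 GC boxes, the KIT window 1 GC box, and the FGFR4 window 7 GC boxes and 1 E-box, the last overlapping a GC box by 1 base. Among 35114 RefSeq windows of the same length, 42.6% held a GC box and 17.5% the E-box. The AXL window was poor in CpG, with 0.155 of the number expected from its base composition, against 0.836 for MET, 0.973 for KIT, 0.689 for FGFR4 and a median of 0.558 over all windows. Of the receptors that were not called, FGFR2, FGFR3 and PDGFRB had 3, 8 and 1 GC boxes in the window taken, and PDGFRA and DDR2 had none. None of these windows held the E-box. FGFR2, PDGFRA and DDR2 have 5, 2 and 3 windows, and those not taken are not described here. A match describes the letters of a window and is not evidence of a bound factor.

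MET, AXL and KIT were up-regulated and FGFR4 was down-regulated in mutant cells, with a call requiring a 3-fold difference and, in the edgeR quasi-likelihood test over 16059 genes, an adjusted p under 0.01, the thresholds of the study's methods. Over all genes tested, 28.6% were called up and 17.6% down by this rule, so that the number called among the 8 receptors tested, 3 up and 1 down, is not in itself a result about receptors. FGFR1, FGFR2, FGFR3 and PDGFRB passed the p-value threshold but not the fold threshold. All 8 receptors that could be tested thus had an adjusted p under 0.01 in this fit, as did 74.3% of all genes tested. In 6 of these 8 all mutant libraries lay above all parental libraries and in 2 below, as in 47.0% and 36.5% of all genes tested. DDR2 and PDGFRA had too few counts to be tested. The median log2 fold change of the 8 receptors was 1.23, against 0.32 for all genes tested. It was -0.26 for the 4 epithelial receptors, of which 1 was called up and 1 down, and 1.40 for the 3 mesenchymal receptors tested, of which 1 was called up and 0 down by the same test. The medians of the 8, the epithelial and the mesenchymal receptors were 0.53, -0.56 and 0.27 with an offset for gene length, 0.87, 0.07 and 1.63 with offsets for length and GC content, and 2.14, 0.66 and 2.32 with scaling by library totals, where all genes stood at 0.33, 0.26 and 1.24.

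**Figure D1:**
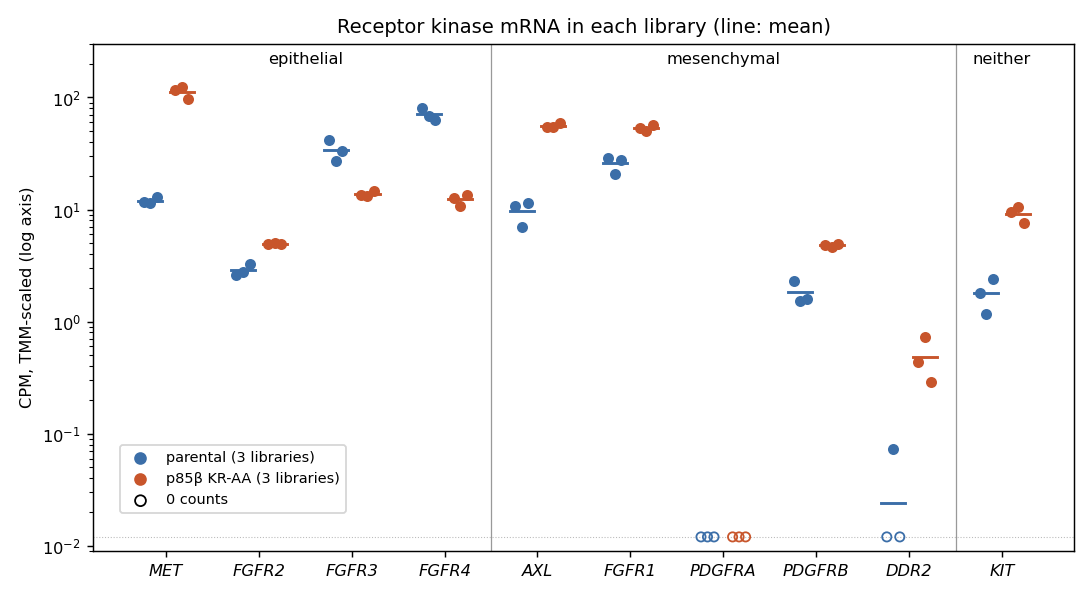
TMM-scaled CPM of each receptor (log axis) in the 3 parental (blue) and 3 p85β KR-AA libraries (orange), with a line at each mean and open circles for libraries with 0 counts. MET, AXL, KIT, FGFR1, FGFR2, PDGFRB and DDR2 lie higher and FGFR4 and FGFR3 lower in all p85β KR-AA libraries. PDGFRA has no count anywhere.

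Among the epithelial receptors, MET (ENSG00000105976, chromosome 7 of GRCh37, 116312250 to 116438431), the receptor of hepatocyte growth factor, had 175, 158 and 208 counts in parental replicates 1 to 3 and 4231, 3597 and 2682 in mutant replicates 1 to 3. Scaled to library size these were 11.6, 11.5 and 12.8 CPM against 115.4, 125.2 and 97.7 CPM. The lowest mutant library lay far above the highest parental library, and the spread within a genotype was small beside the gap. The log2 fold change was 3.23 (standard error 0.15, adjusted p = 4.45e-09), a 9.40-fold increase. It was the largest of the receptors tested here, but not with offsets for length and GC content, where AXL (2.98) and PDGFRB (1.63) exceeded MET (1.27).

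FGFR4 (ENSG00000160867, chromosome 5, 176513906 to 176525145), the receptor of the bile acid hormone FGF19, went the other way. It had 80.6, 67.9 and 63.5 CPM in parental cells against 12.7, 10.7 and 13.5 CPM in mutant cells. Per length FGFR4 was the most abundant FGF receptor of every parental library, and it fell by 2.52 on the log2 scale (standard error 0.16, adjusted p = 2.20e-08). FGFR3 (ENSG00000068078, chromosome 4, 1795020 to 1810599), a receptor of epithelial and cartilage growth control, had 41.3, 26.9 and 33.5 CPM in parental and 13.5, 13.1 and 14.6 CPM in mutant libraries. Its log2 fold change was -1.30 (standard error 0.18, adjusted p = 2.06e-05), short of the fold threshold, and below the 0.32 of the median gene. In TPM, which divides the counts of a gene by its length before scaling every library to the same total, FGFR3 averaged 7.95 ± 2.18 in parental and 8.30 ± 0.27 in mutant cells (SD, n = 3). Its log2 ratio of mean TPM was 0.062, but that of the median gene was 1.62, so that FGFR3 lay below the median gene on both scales.

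FGFR2 (ENSG00000066468, chromosome 10, 123237846 to 123357972) is spliced into an epithelial isoform that binds FGF7 and FGF10 and a mesenchymal isoform, and gene counts do not separate them. Per length it was the least abundant epithelial receptor in both genotypes, with 2.59, 2.77 and 3.27 CPM in parental and 4.88, 5.01 and 4.92 CPM in mutant libraries. All mutant libraries lay above the parental ones, but by less than the fold threshold (log2 fold change 0.78, standard error 0.22, adjusted p = 0.00498). The adjusted p did not stay under 0.01 in every fit, and was 0.0207 with DESeq2. In the edgeR test it was 0.0249, 0.0229 and 0.0101 without mutant replicate 1, 2 or 3. The same test gave 0.0148, 0.0107 and 0.00706 without parental replicate 1, 2 or 3. It gave 0.0103 with the replicate block and robust moderation, and 0.0998 with offsets for length and GC content. The splicing factors that set this isoform choice were not called. They are named because there are only 4, outside the rule for named genes. ESRP1 and ESRP2, which favor the epithelial exon, had log2 fold changes of 0.58 (standard error 0.18, adjusted p = 0.0108) and -0.90 (standard error 0.16, adjusted p = 0.000168), and RBFOX2 and PTBP1 had 0.97 and -0.39. With offsets for length and GC content ESRP1 and RBFOX2 turned to -0.77 and -0.76, ESRP2 to 0.0019 and PTBP1 to 0.55, so that no direction held for any of them.

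Among the mesenchymal receptors, AXL (ENSG00000167601, chromosome 19, 41725128 to 41767671), a receptor of vitamin K-dependent ligands that is widely studied in drug-resistant and invasive carcinoma, had 161, 95 and 187 counts in the parental and 2006, 1578 and 1610 in the mutant libraries. These amounted to 10.7, 6.92 and 11.5 CPM against 54.7, 54.9 and 58.7 CPM. Parental replicate 2 was the lowest, and the mutant libraries were close to each other. The log2 fold change was 2.52 (standard error 0.19, adjusted p = 8.44e-08), a 5.75-fold increase.

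FGFR1 (ENSG00000077782, chromosome 8, 38257733 to 38326352), the main FGF receptor of mesenchyme, had 28.9, 20.7 and 27.9 CPM in parental and 53.9, 50.2 and 56.9 CPM in mutant libraries. The groups did not overlap, and the log2 fold change, 1.05 with a standard error of 0.16 and an adjusted p of 4.6e-05, stayed under the fold threshold. LETM2, which overlaps FGFR1 on the opposite strand, had means of 35.2 and 71.5 counts in the same libraries, and whether the counting used strand is not given in the sources used here. PDGFRB (ENSG00000113721, chromosome 5, 149493402 to 149535435), the PDGF receptor of pericytes and fibroblasts, was low throughout, with 35, 21 and 26 counts in parental and 178, 132 and 136 in mutant libraries. Its CPM were 2.32, 1.53 and 1.604 against 4.86, 4.596 and 4.96, which gave a log2 difference of 1.40 (standard error 0.25) at an adjusted p of 0.000174. Without parental replicate 1, the highest of its group, the value was 1.601 and PDGFRB was called up.

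DDR2 and PDGFRA were at or near the limit of detection. DDR2 (ENSG00000162733, chromosome 1, 162601163 to 162757195), a receptor of fibrillar collagen, had 0, 1 and 0 counts in parental and 16, 21 and 8 in mutant libraries. Its mean of 0.486 ± 0.224 CPM in mutant cells (SD, n = 3) exceeded the level of 3 parental counts, and so was at least 2.23-fold higher. PDGFRA (ENSG00000134853, chromosome 4, 55095447 to 55164412), a defining receptor of fibroblasts, had 0 counts in all 6 libraries, which allows up to 0.0818 to 0.218 CPM per library. These zeros are uncertain, because the gene ENSG00000282278 runs on the same strand from within FIP1L1 (54243736 to 54330549) across nearly all of PDGFRA (54244006 to 55161439). On average 133.5 parental and 482.4 mutant counts were assigned to it, and how shared reads were divided is not given in the sources used here.

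KIT (ENSG00000157404, chromosome 4, 55523434 to 55606949), the stem cell factor receptor, had 27, 16 and 39 counts in parental and 351, 302 and 207 in mutant libraries. The corresponding values were 1.79, 1.17 and 2.41 CPM against 9.57, 10.5 and 7.54 CPM. The parental values varied about their mean more than those of any other receptor called, yet all lay below the mutant libraries (log2 fold change 2.35, standard error 0.27, adjusted p = 4.21e-06, a 5.09-fold increase). Of the markers of mast cells, which also express KIT, CPA3 had 0 counts in every library and MS4A2 at most 3.

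Per length, the order of the receptors changed between the genotypes. In parental cells FGFR4 led with 26.7 ± 4.22 TPM, followed by FGFR3 at 7.95 ± 2.18, FGFR1 at 4.84 ± 1.24, AXL at 2.09 ± 0.70, MET at 1.74 ± 0.27, FGFR2 at 0.941 ± 0.191, KIT at 0.352 ± 0.152 and PDGFRB at 0.320 ± 0.090 TPM (SD, n = 3 each). The ranges of the neighbours FGFR3 and FGFR1, AXL and MET, and KIT and PDGFRB overlapped between libraries. Within each parental library FGFR3 exceeded FGFR1, whereas the order of the other pairs varied from library to library. In mutant cells MET led with 42.7 ± 6.41 TPM, followed by AXL at 30.8 ± 0.81, FGFR1 at 25.9 ± 0.91, FGFR4 at 12.1 ± 1.11, FGFR3 at 8.30 ± 0.27, KIT at 4.62 ± 0.88, FGFR2 at 4.19 ± 0.17, PDGFRB at 2.18 ± 0.024 and DDR2 at 0.425 ± 0.208 TPM (SD, n = 3 each). There only KIT and FGFR2 overlapped.

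**Figure D2:**
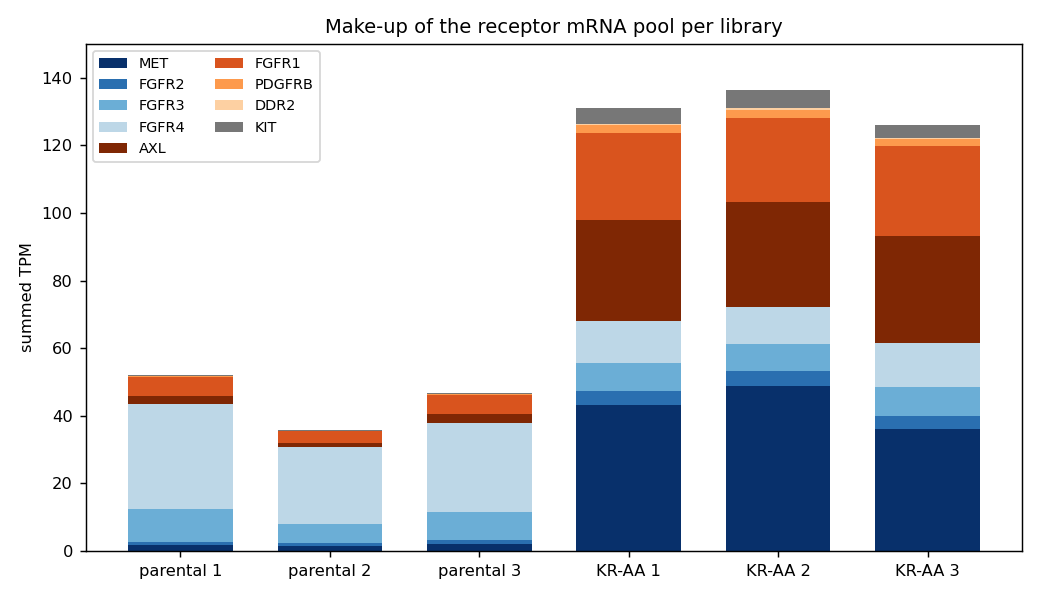
Summed TPM of the receptors in each library, stacked by gene, with epithelial receptors in blue, mesenchymal receptors in orange and brown and KIT in grey (PDGFRA is at 0). FGFR4 makes up most of the bar in the parental libraries, and MET, AXL and FGFR1 most of it in the p85β KR-AA libraries.

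The summed TPM of the 10 receptors was 45.0 ± 8.34 in parental and 131.2 ± 5.25 in mutant cells (SD, n = 3). This log2 ratio of 1.545 was no larger than the 1.62 of the median gene on the same scale. FGFR4 accounted for 59.7% ± 3.99 of this pool in parental and 9.24% ± 1.20 in mutant cells, and MET for 3.92% ± 0.54 and 32.4% ± 3.62 (SD, n = 3 each). The 5 mesenchymal receptors made up 15.7%, 13.9% and 18.3% of the pool in the parental libraries, against 44.5%, 43.2% and 48.2% in the mutant libraries. Their share was 29.3 percentage points higher in mutant cells, and 19.5 points higher when CPM was used in place of TPM. MET, an epithelial receptor, held a larger share of the mutant pool than FGFR2, FGFR3 and FGFR4 together.

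Ratios between receptors of one library do not depend on how libraries are scaled. The ratio of FGFR1 to FGFR4 TPM was 0.176, 0.149 and 0.216 in the 3 parental and 2.08, 2.30 and 2.07 in the 3 mutant libraries. Of the TAM receptors, the family of AXL, AXL and TYRO3 also exchanged places, whereas MERTK stayed below TYRO3 in every library. The ratio of AXL to TYRO3 was 0.105, 0.078 and 0.159 in parental and 4.06, 4.27 and 3.70 in mutant libraries, and that of MERTK to TYRO3 averaged 0.0091 ± 0.0013 and 0.519 ± 0.039 (SD, n = 3 each). The ratio of MET to MST1R, the other receptor of its family, was 0.047, 0.068 and 0.065 against 1.22, 1.48 and 0.921. Such ratios still carry any difference between libraries in how well genes of different length or base composition were recovered.

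Several receptor calls depended on how gene length and base composition were treated. The deposited lengths of MET, KIT, PDGFRA, PDGFRB and FGFR1 are 5186 to 6876 bases, and FGFR4 is the shortest receptor at 2638 bases. An offset for gene length gave log2 fold changes of 1.80 for MET, 1.74 for AXL and -2.29 for FGFR4, all still called, as was FGFR3 (-1.90), but 1.39 for KIT, which was not, and 0.03 for FGFR1 and 0.27 for PDGFRB. With offsets for length and GC content, AXL (2.98) and PDGFRB (1.63) were called up, while MET (1.27), KIT (0.54) and FGFR4 (-0.85) kept their direction under the fold threshold, and 17.6% of all genes were called up and 6.25% down. Both offsets take out trends with length or GC content of any origin, biological ones included. With scaling by library totals alone, the median gene stood at 1.24 in place of 0.32 on the log2 scale, 7052 genes were called up and 973 down in place of 4597 and 2825, and FGFR1, FGFR2 and PDGFRB were also called up. Of the receptors, AXL alone was called in every fit run, each time up.

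**Figure D3:**
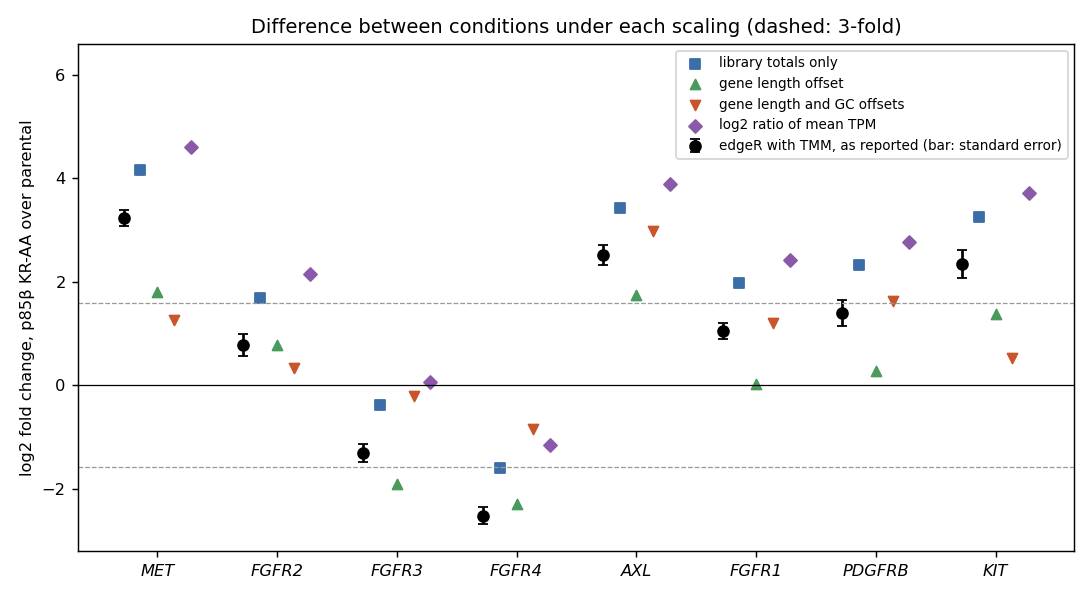
Log2 fold change of the 8 receptors tested in the reported fit (black, with standard error), with library totals only, with offsets for gene length or for length and GC content, and as the ratio of mean TPM, with dashed lines at a 3-fold change. FGFR3 is at 0.062 on the TPM scale, where the median gene is at 1.62, and MET, KIT and FGFR4 fall inside the 3-fold lines with both offsets.

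The ligands of these receptors did not move as 1 group. Of 31 ligand genes, 13 could be tested, with a median log2 fold change of 2.43. Called were 8 up and 3 down, against 28.6% and 17.6% of all genes tested. Among the 8, 3 collagens (COL2A1, COL3A1 and COL5A1) had at most 3 counts in every parental library. They could be tested only because of the mutant libraries and could be called only up. HGF, the only ligand of MET, had 0 counts in all 6 libraries. SPINT2, an inhibitor of the proteases that activate HGF, fell from 2302 ± 246 to 385.1 ± 27.1 CPM (SD, n = 3 each, log2 fold change -2.58, standard error 0.14, adjusted p = 7.14e-09). The protease ST14 and the related inhibitor SPINT1, named after their values were seen, were also lower (log2 fold changes -1.56 and -1.57). Neither was called, and with offsets for length and GC content they stood at -0.26 and -0.28. GAS6, the ligand of highest affinity for AXL, fell from 216.6 ± 22.9 to 54.3 ± 5.05 CPM (log2 fold change -1.997, standard error 0.14, adjusted p = 3.76e-08). PROS1, protein S, which binds TYRO3 and MERTK, rose from 2.06 ± 0.50 to 18.8 ± 3.98 CPM (log2 fold change 3.18, standard error 0.25, adjusted p = 1.25e-07). Receptor and ligand thus moved in opposite directions for AXL and GAS6, although GAS6 kept only its sign, at -0.37, with offsets for length and GC content. Under those offsets 8 of the ligands, the 3 collagens included, were called up and 0 down, against 17.6% and 6.25% of all genes tested.

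Of the FGF ligands, 3 of 18 had enough counts to be tested. FGF2, a ligand of FGFR1 and of the mesenchymal isoforms, rose from 0.554 ± 0.278 to 13.9 ± 2.57 CPM (log2 fold change 4.68, standard error 0.32, adjusted p = 3.85e-08). FGF19, the ligand of FGFR4, fell from 9.47 ± 1.65 to 2.62 ± 0.40 CPM (log2 fold change -1.85, standard error 0.22, adjusted p = 6.21e-06), in the same direction as its receptor, and its co-receptor KLB had between 1 and 8 counts per library. FGF18, a ligand of FGFR3, fell from 1.504 ± 0.279 to 0.257 ± 0.033 CPM (log2 fold change -2.51, standard error 0.37, adjusted p = 3.77e-05). With both offsets FGF19 and FGF18 stood at -0.55 and -0.95 and were not called, whereas FGF2 stood at 4.499 and was.

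Of the PDGF ligands, PDGFA and PDGFC, which act mainly through PDGFRA, rose by log2 fold changes of 2.43 (standard error 0.18, adjusted p = 5.84e-08) and 3.46 (standard error 0.48, adjusted p = 2.26e-05), to 39.6 ± 1.35 and 7.27 ± 1.09 CPM. PDGFB, the main ligand of PDGFRB, was not called (log2 fold change -0.39, standard error 0.18, adjusted p = 0.0644), and PDGFD had 0 counts in all libraries. KITLG, the ligand of KIT, rose from 9.20 ± 1.18 to 34.1 ± 9.995 CPM (log2 fold change 1.89, standard error 0.23, adjusted p = 6.31e-06), and turned to -0.15 with both offsets, the only ligand or other pathway gene named as called whose direction reversed under an offset or with library totals. The collagens that DDR2 binds differed among themselves. COL5A1, COL2A1 and COL3A1 had at most 3 counts in each parental library and were at least 119.8-fold, 74.7-fold and 17.1-fold higher, respectively, in mutant cells. COL1A1 reached only 6.50 ± 0.89 CPM (log2 fold change 1.45, not called), and its partner chain COL1A2 had no count in mutant libraries. COL1A1, COL1A2 and COL3A1 are also on the list of mesenchymal markers.

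**Figure D4:**
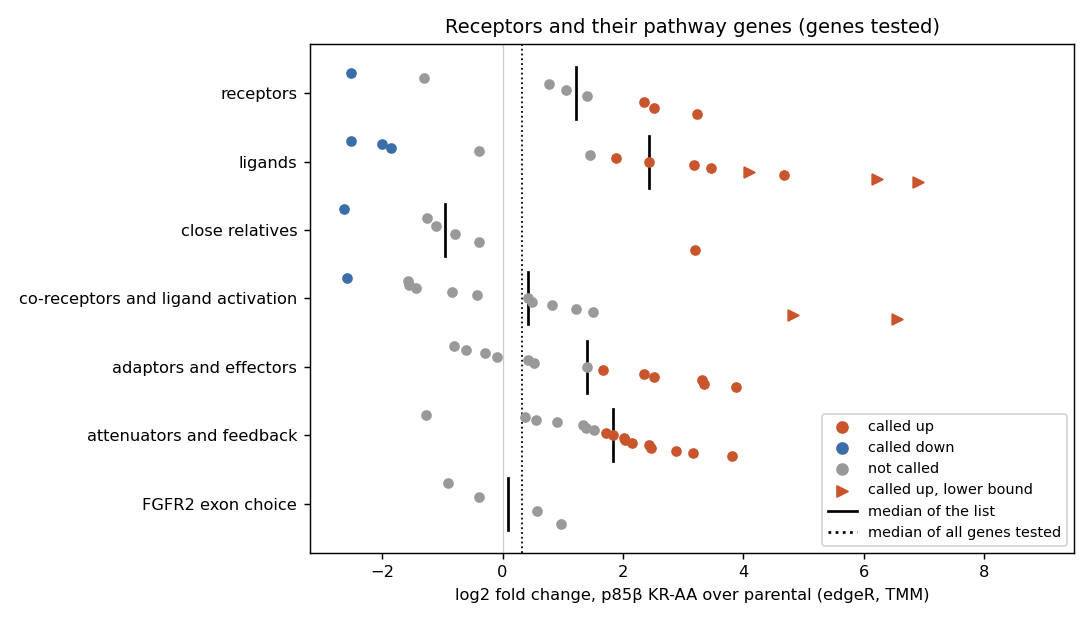
Log2 fold change of the receptors and of 6 lists of pathway genes, 1 point per gene tested, with the list's median (solid line) and the median of all genes tested (dotted line, 0.32). Triangles mark lower bounds for genes with at most 3 counts in every parental library. Such genes could be tested only because of the mutant libraries and could be called only up. Called up are 10 of 17 attenuators, 8 of 13 ligands and 1 of 6 close relatives, against 28.6% of all genes tested. The lists were not tested against each other.

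The 6 close relatives tested had a median log2 fold change of -0.95, which turned to 0.05 with both offsets. TYRO3, the TAM receptor of epithelial and neural tissue, fell from 149.1 ± 24.7 to 23.9 ± 2.67 CPM (log2 fold change -2.64, standard error 0.16, adjusted p = 1.49e-08), and MERTK, the TAM receptor of phagocytes, rose from 0.603 ± 0.050 to 5.56 ± 0.52 CPM (log2 fold change 3.20, standard error 0.27, adjusted p = 2.50e-07). Both stayed called with both offsets, and no other relative was called in the reported fit. DDR1, the epithelial collagen receptor, which was named after its values were seen, had 430.2 ± 77.1 and 329.3 ± 23.1 CPM (log2 fold change -0.39, adjusted p = 0.0257), a direction that turned to 1.08 with both offsets and to 0.53 with library totals.

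Of 18 co-receptors and genes of ligand activation, 13 were tested, 2 were called up and 1 down, against 28.6% and 17.6% of all genes tested. Their median was 0.43 and turned to -0.20 with both offsets. SDC2 and GPC6, heparan sulfate proteoglycans that can present FGF ligands, had no parental count and were at least 93.6-fold and 28.4-fold higher in mutant cells. Both could be tested only because of the mutant libraries and could be called only up. The gene called down was SPINT2, described above, which stood at -1.10 with both offsets and was then not called.

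Of 13 adaptors and effectors, 6 were called up and 0 down, against 28.6% and 17.6% of all genes tested, with a median of 1.40. They were SOS2 (log2 fold change 3.87), SOS1 (3.34), FRS2 (3.31), GAB1 (2.51), PTPN11 (2.36) and CRKL (1.67). FRS2 is the docking protein of FGF receptors, GAB1 that of MET, PTPN11 encodes SHP2, and SOS1 and SOS2 are exchange factors for RAS. With both offsets, only SOS2 (1.87) and PTPN11 (1.799) of the 13 were called up, against 17.6% of all genes tested. The median was then 0.82, against 0.26 for all genes tested.

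Of 18 attenuators and feedback genes, 17 were tested, 10 were called up and 0 down, with a median of 1.83. The largest increases were those of CBL, the ubiquitin ligase that marks MET, KIT and other receptors for degradation, from 4.38 ± 0.91 to 61.5 ± 3.51 CPM (log2 fold change 3.81, standard error 0.19, adjusted p = 5.36e-09), of its relative CBLB (3.16) and of SH2B3 (2.88), an adaptor that restrains KIT signaling. With both offsets, CBL (1.86), CBLB (2.09) and SH2B3 (3.03) were among 5 of the 17 called up, against 17.6% of all genes tested. The median was then 0.84, against 0.26 for all genes tested. These lists were compared with the background of 28.6% and 17.6% by their counts only, and no list was tested as a set.

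The protein-coding genes whose pattern over the 6 libraries was most like that of MET were SPAG9, PARP14 and POU2F1, with root mean square differences of 0.067, 0.067 and 0.070 between their centered log2 CPM and that of MET. Those most like AXL were MTMR11, BHLHE40 and NFKBIZ, at 0.057, 0.066 and 0.079. Their log2 fold changes were 3.11, 3.37 and 3.18, and 2.57, 2.40 and 2.43, respectively.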

How the data were processed

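RNA-seq libraries of DLD1 parental and p85β KR-AA cells were assigned to genotypes by their titles, which also number the replicates. The source names of p85β KR-AA replicates 2 and 3 read R479A and R480A in place of R478A, and the titles and genotype labels were followed. The authors trimmed paired-end reads with SeqPrep and Sickle and deposited estimated counts (expected counts, not normalized) and a length per Ensembl gene. The submitters' processing notes list HISAT2 2.1.0, RSEM 1.3.1, DESeq2 1.24.0 and the build hg18, and the annotation release is not given in the sources used here. Symbols and GRCh37 positions came from GENCODE release 44 lifted to that build, joined by Ensembl identifier for 56745 of 58884 genes, so that positions are those of this annotation.

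Counts were rounded and tested in R 4.3.3 with edgeR 4.0.16 (genes kept by filterByExpr at 10 counts and a total of 15, TMM, quasi-likelihood F test, Benjamini-Hochberg adjustment over 16059 genes), with parental cells as reference and no covariate. The standard error is the log2 fold change over the square root of its F value. CPM used TMM-scaled library sizes, and TPM the deposited lengths over all genes. A fold against a group with at most 3 counts in every library is a bound against 3 counts in the shallowest library. Alternatives were DESeq2 1.42.0, library totals, other filters, robust moderation, the replicate block, each library left out, other thresholds, a test against a fold of 3, and offsets for the length and GC content of genes (robust splines with 5 degrees of freedom per library, MASS 7.3.60.0.1, 99.0% of tested genes with a GC value). The ratio of mean TPM was added after the data were seen. The code was tested on simulated counts, and replicates differed by more than sampling noise (chi-square per degree of freedom 4.08 to 35.8). Figures were drawn with matplotlib 3.10.9 in Python 3.11.15.

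The members and lists were chosen with earlier results of these data known. Named are all receptors, every ligand with a mean of at least 1 CPM in either genotype, the called genes of each list (the 3 largest in each direction where over 6 were called), the up to 3 most abundant markers per list and condition, and the 3 genes closest in pattern to MET and to AXL. Other genes are named as chosen later or as examples at 0 counts. ChIP-seq, blots and xenografts of the study were not analysed here.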

Additional observations from a re-analysis of the deposited data

How the results depend on the processing

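Over the 16 alternatives that were planned for the 8 receptors tested, no receptor changed direction. Robust moderation without the block, the fold of 2 and the test against a fold of 3 reuse the reported fold changes, so no direction could change there. FGFR1 kept its sign at only 0.03 with the length offset. Of 128 values 114 kept their status as called or not called, 4 lost a call and 10 gained one. Status could stay the same while the adjusted p rose above its threshold. This was so for FGFR1 with the length offset, where the adjusted p in the edgeR test was 0.843. Scaling by library totals gave 7052 genes up, 973 down and 6 receptors up. At least 10 counts in every library gave 2898 genes up. A fold of 2 with an adjusted p under 0.05 gave 4289 genes down (6074 up), 5 receptors up and 2 down. A test against a fold of 3 gave 2974 up and 1779 down. The length offset gave 2 receptors down. The length and GC offsets gave 2834 genes up, 1003 down and 0 receptors down. As a ratio of mean TPM, an alternative chosen after the data were seen, FGFR3 turned to 0.062 on the log2 scale, below the median gene at 1.62. The higher share of mesenchymal receptors was 19.5 percentage points with CPM and 27.9 to 30.5 with any library left out. Beyond the alternatives' own construction, the causes were not tested.

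With any library left out, MET, AXL, KIT and FGFR4 kept their calls. PDGFRB was also called without parental replicate 1, and DDR2 passed the filter and was called without parental replicate 2 or p85β KR-AA replicate 3, on at most 45 counts, and with no filter. With the replicate block and robust moderation 4618 genes were called up and 2823 down, with 3 receptors up and 1 down as without it. Same-numbered libraries did not deviate together (correlations of -0.14, 0.12 and -0.045), and not every library correlated best with its own number. DDR2, PDGFRA and most FGF ligands had too few counts to be tested.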
